A study of Mus musculus with 21 samples.

Results

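Lumbar spinal cord of mice without the C9orf72 ortholog was set against cord of mice with 1 copy at 17 months of age. The comparison holds 4 null libraries (C9orf72 -/-) and 4 heterozygous libraries (C9orf72 +/-), chosen by genotype and age from the 21 libraries of the series, and 14012 genes that reached 0.5 RPKM in at least 4 of these 8 libraries. RPKM is a read count scaled by transcript length and by the reads mapped in the library. All mice were C57BL/6, and both genotypes lack at least 1 copy, so neither group is a normal control. Wild type cords of the same age (C9orf72 +/+, 4 libraries) are given as context only, and 3 null and 3 heterozygous libraries at 3 months give the same contrast at another age. The labels give neither sex nor the way the allele was made, and the design text counts 4 per genotype at this age without saying whether tissue was pooled. The p-values measure the spread between these libraries.

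C9orf72 protein forms a complex with Smcr8 and Wdr41 that acts on small GTPases and takes part in autophagy and lysosome function. In people, a repeat expansion in the gene leads to amyotrophic lateral sclerosis (ALS) and frontotemporal dementia (FTD). Microglia and other myeloid cells are among the cells that express the gene, and mice without it are known for immune changes.

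The libraries carried the markers of their tissue. The motor neuron enzyme Chat measured 7.21 to 10.9 RPKM in null and 10.6 to 12.3 RPKM in heterozygous cords, the neuronal Snap25 at least 1043 RPKM in every library, and the lumbar gene Hoxc10 at least 29.4 RPKM. Schwann cell Prx, sensory ganglion Scn10a and muscle Ckm were at or below 0.154 RPKM. Another muscle gene, Acta1, measured 0.317 to 0.604 RPKM in null and 0.341 to 0.465 RPKM in heterozygous cords, highest in null library 2. Null library 2 stood apart: the first principal component of the 8 libraries held 55.7% of the variance and placed it at 37.8, with the others between -14.8 and 4.93. Xist, the transcript that coats the inactive X chromosome of females, measured 25.7 and 36.0 RPKM in null libraries 2 and 4 and 38.9 RPKM in heterozygous library 1, and at most 1.23 RPKM in the other 5. Ddx3y, a Y-linked helicase gene, showed the opposite pattern, at most 0.382 RPKM in those 3 and at least 16.9 RPKM in the other 5.

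The Hox genes separated null library 2 in a second way, and were picked for the text with their values in view. Hox genes of higher number mark more caudal cord. Hoxa11 measured 2.33, 0.0703, 2.15 and 1.61 RPKM in null libraries 1 to 4, against 2.09, 1.33, 2.89 and 2.66 RPKM in heterozygous libraries 1 to 4. Hoxd11 measured 2.99, 0.0857, 1.59 and 1.41 RPKM in the null cords and 2.12, 0.981, 2.85 and 3.75 RPKM in the heterozygous cords, and Hoxc11 2.798, 0.197, 1.53 and 0.966 RPKM in the null cords and 2.21, 0.768, 3.11 and 3.37 RPKM in the heterozygous cords. Null library 2 was thus near 0 in each of these genes, below every other library of the comparison. Outside the comparison, wild type library 3 was alike, with Hoxa11 at 0.110, Hoxd11 at 0.0516, Hoxc11 at 0.119 and Xist at 44.6 RPKM. Hoxd10 was lowest in null library 2 as well, at 16.2, 6.81, 13.96 and 11.7 RPKM in the null cords and 14.8, 10.3, 16.999 and 19.4 RPKM in the heterozygous cords, whereas Hoxc10 spanned 29.4 to 37.6 RPKM in null and 29.9 to 37.1 RPKM in heterozygous cords. In wild type library 3, Hoxd10 measured 2.70 RPKM and Hoxc10 24.1 RPKM. The part that this difference between libraries has in the results below was not tested.

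Tgoln2, a trans-Golgi gene, was also low in null library 2 alone (10.9, 1.097, 9.55 and 12.1 RPKM in the null cords and 14.4, 12.99, 8.45 and 10.8 RPKM in the heterozygous cords), while its paralog Tgoln1 measured 56.1 to 66.3 RPKM in null and 56.6 to 64.0 RPKM in heterozygous cords. The 2 paralogs are close in sequence, so the split of reads between them is uncertain.

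The targeted gene was the single gene past the threshold. 3110043O21Rik (GRCm38 chromosome 4, 35191285 to 35226175, minus strand, protein coding) measured 1.68, 1.81, 0.926 and 0.579 RPKM in null libraries 1 to 4, against 7.64, 7.42, 7.66 and 7.32 RPKM in heterozygous libraries 1 to 4. Every null library lay below every heterozygous library, and wild type cords averaged 13.9 ± 0.451 RPKM (SD, n = 4). The null mean of 1.25 ± 0.591 RPKM was 16.6% of the heterozygous mean of 7.51 ± 0.165 RPKM (SD, n = 4 each). In units of log2(RPKM + 0.5), which understate changes of low genes, it fell by 2.26 (SE 0.21, limma adjusted p = 0.0113). By exact permutation over the 8 libraries, two-sided, p was 0.0286, the smallest this design can reach. The call did not hold when low genes were kept in (limma adjusted p = 0.0693) and with the replicate number as a block (limma adjusted p = 0.140). It was also lost without null library 3 and without any of heterozygous libraries 1 to 4, with limma adjusted p between 0.075 and 0.110 and a log2 difference between -2.19 and -2.28. At 3 months the gene averaged 0.522 ± 0.0904 RPKM in null and 6.40 ± 0.228 RPKM in heterozygous cords (SD, n = 3 each), a log2 difference of -2.76 (SE 0.08, limma adjusted p = 5.46e-08).

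The share of genes called, adjusted p under 0.05 by limma with Benjamini-Hochberg adjustment, was 0.00714% in all, 0.00714% lower and 0% higher. At an unadjusted limma p under 0.05 there were 960 genes, 510 higher (3.64%) and 450 lower (3.21%). Because so few genes passed, members are described below by whether the 4 null and 4 heterozygous libraries overlap: 239 genes (1.71%) were higher in every null library and 342 (2.44%) were lower. Without null library 2 these counts were 295 (2.11%) and 506 (3.61%), and without null library 1 they were 1106 (7.89%) and 1051 (7.5%). The median log2 difference over all genes tested was -0.00486. List counts given below for all 8 libraries are to be read beside the shares of 1.71% higher and 2.44% lower.

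**Figure D1:**
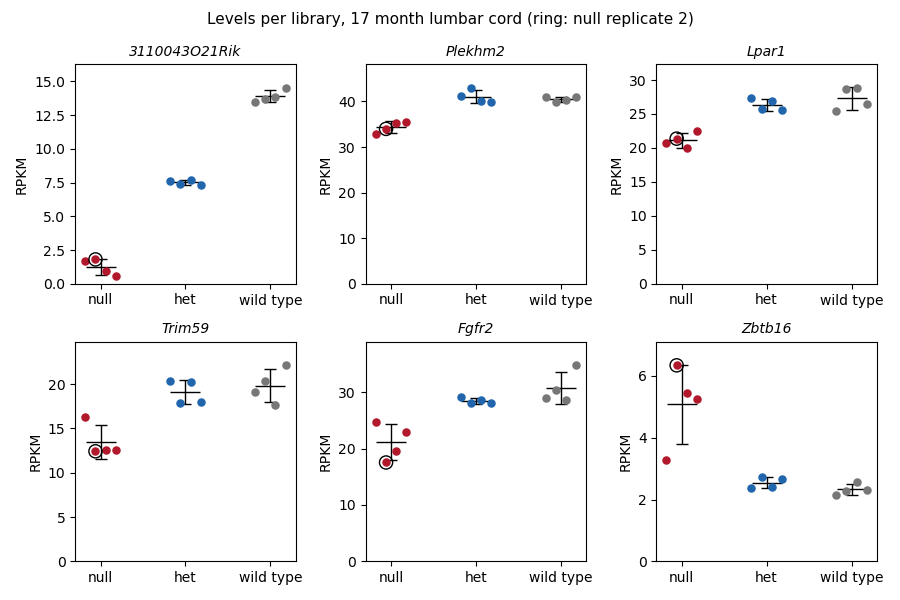
RPKM in each 17 month library (points) for 6 genes in null, heterozygous (het) and wild type cords, with mean and SD (bars, n = 4) and a ring around null library 2. Null libraries sit below all heterozygous libraries for 5 genes and above them for Zbtb16, and 3110043O21Rik alone passed the test.

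Around the target, 3110043O21Rik has Mob3b as its nearest tested neighbour on the same strand (GRCm38 chromosome 4, 34949074 to 35157484, minus strand), a kinase adaptor gene. Mob3b measured 3.35, 3.95, 4.05 and 4.06 RPKM in null libraries 1 to 4, against 4.66, 4.43, 4.69 and 4.19 RPKM in heterozygous libraries 1 to 4. Every null library was lower than every heterozygous one, and the difference did not pass (log2 difference -0.20, SE 0.08, limma adjusted p = 0.704). At 3 months the Mob3b difference was -0.03 and the groups overlapped. Among the partners of the protein, Smcr8 measured 7.18, 6.196, 7.29 and 7.17 RPKM in the null cords and 6.81, 7.15, 6.67 and 7.23 RPKM in the heterozygous cords, with null library 2 lowest and the groups overlapping (log2 difference -0.00, SE 0.07, limma adjusted p = 0.986). Wdr41 measured 13.5 to 14.6 RPKM in null and 13.03 to 14.6 RPKM in heterozygous cords (log2 difference 0.01, SE 0.06, limma adjusted p = 0.965). These 2 were chosen as complex members after their values were seen. Rb1cc1, a scaffold of the autophagy initiation complex, spanned 13.2 to 17.8 RPKM in null and 17.5 to 18.9 RPKM in heterozygous cords, and its difference of -0.23 did not pass. Of 11 tested locus and partner genes, the target and Mob3b were lower without overlap and 0 were higher, with a median of -0.00380 that lay between -0.03 and 0.02 with 1 library left out.

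Genes of lysosome transport and function were described next because the complex acts there. Plekhm2, which links lysosomes to kinesin (GRCm38 chromosome 4, 141625734 to 141664899, minus strand), measured 32.8, 33.99, 35.3 and 35.5 RPKM in null libraries 1 to 4, against 41.2, 42.99, 40.1 and 39.9 RPKM in heterozygous libraries 1 to 4. The null range lay wholly below the heterozygous range, and null library 2 sat inside its own group. The difference did not pass over all genes (log2 difference -0.25, SE 0.06, limma adjusted p = 0.661). The same contrast at 3 months gave -0.26, again without overlap. Of 38 tested lysosome genes, 1 was higher and 2 were lower without overlap, 0 passed, and the median was 0.17 (32 positive), or 0.08 without null library 2. Man2b1, a lysosomal mannosidase, measured 13.8, 21.7, 13.6 and 13.7 RPKM in null libraries 1 to 4, against 13.4, 11.3, 11.2 and 11.1 RPKM in heterozygous libraries 1 to 4, highest by far in null library 2 (log2 difference 0.38, SE 0.14, limma adjusted p = 0.704). Grn, whose product progranulin supports lysosomes, spanned 22.2 to 48.5 RPKM in null and 16.6 to 23.3 RPKM in heterozygous cords with overlap. Ctsk, a cathepsin, was the other lower member at 2.25 to 2.61 RPKM in null and 2.66 to 3.44 RPKM in heterozygous cords (log2 difference -0.27, SE 0.09, limma adjusted p = 0.695). Of 28 autophagy genes 1 was higher and 1 was lower without overlap, with a median of -0.01 that lay between -0.03 and 0.000249 with 1 library left out. These were Atg7, needed for lipidation of the LC3 proteins (7.79 to 8.22 RPKM in null and 6.55 to 7.74 RPKM in heterozygous cords), and the kinase gene Tbk1 (13.8 to 15.3 RPKM in null and 15.5 to 16.01 RPKM in heterozygous cords).

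Beyond the target, the genes with the smallest p on the lower side did not pass the threshold. Lpar1, a lysophosphatidic acid receptor found on oligodendrocytes (GRCm38 chromosome 4, 58435255 to 58553898, minus strand), measured 20.7, 21.4, 19.98 and 22.5 RPKM in null libraries 1 to 4, against 27.3, 25.7, 26.9 and 25.5 RPKM in heterozygous libraries 1 to 4. All null libraries, null library 2 included, lay below the heterozygous ones (log2 difference -0.32, SE 0.06, limma adjusted p = 0.661), and at 3 months the groups were also apart, at -0.13. Trim59, a ubiquitin ligase gene, measured 16.3, 12.4, 12.6 and 12.5 RPKM in null libraries 1 to 4, against 20.3, 17.9, 20.3 and 18.02 RPKM in heterozygous libraries 1 to 4, with null library 1 the nearest to the heterozygous range (log2 difference -0.50, SE 0.09, limma adjusted p = 0.661). Fgfr2, a fibroblast growth factor receptor, measured 24.7, 17.5, 19.7 and 22.9 RPKM in null libraries 1 to 4, against 29.2, 28.1, 28.6 and 28.04 RPKM in heterozygous libraries 1 to 4, lowest in null library 2 (log2 difference -0.43, SE 0.10, limma adjusted p = 0.661). Serpinb1a, a protease inhibitor, spanned 17.99 to 23.4 RPKM in null and 25.8 to 30.7 RPKM in heterozygous cords. Elovl7, a fatty acid elongase, spanned 7.51 to 10.5 RPKM in null and 11.6 to 12.8 RPKM in heterozygous cords, and Bche, butyrylcholinesterase, 1.53 to 1.95 RPKM in null and 2.38 to 2.49 RPKM in heterozygous cords. The long non-coding Sox2ot spanned 18.2 to 21.96 RPKM in null and 24.1 to 26.1 RPKM in heterozygous cords; it overlaps Sox2 on the same strand, and the counting of strand is not given. Prrg1 (-0.28), Popdc3 (-0.31), Fam212b (-0.50), Zfp658 (-0.24) and Cenpj (-0.29) were also lower in every null library, and these 12 genes from Lpar1 to Cenpj had limma adjusted p between 0.661 and 0.695.

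Oligodendrocyte and myelin genes were mixed. Of 24 tested, 5 were lower without overlap and 0 higher, against 2.44% and 1.71% of all genes. The differences were 11 positive and 13 negative, with a median of -0.02, between -0.05 and -0.00586 with 1 library left out. Lpar1 above is 1 of the 5. Opalin, a membrane protein of myelinating cells, spanned 25.8 to 29.7 RPKM in null and 30.3 to 36.2 RPKM in heterozygous cords (log2 difference -0.24, SE 0.07, limma adjusted p = 0.695). Ermn, which shapes the oligodendrocyte cytoskeleton, spanned 72.4 to 88.4 RPKM in null and 89.5 to 99.6 RPKM in heterozygous cords (log2 difference -0.21, SE 0.08, limma adjusted p = 0.704). The transcription factor gene Sox10 measured 38.3, 27.2, 29.6 and 29.6 RPKM in the null cords and 37.5, 37.6, 41.1 and 36.4 RPKM in the heterozygous cords, and null library 1 overlapped the heterozygous range. Mbp measured 1669 to 2100 RPKM in null and 1674 to 1797 RPKM in heterozygous cords.

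Cholesterol synthesis genes had small, mostly negative differences. Of 23 tested, 8 were lower without overlap and 0 higher, against 2.44% and 1.71% of all genes, 21 of 23 differences were negative, the median was -0.14 and 0 passed. Idi1, which isomerises isopentenyl diphosphate, measured 32.5, 28.1, 23.8 and 34.1 RPKM in null libraries 1 to 4, against 38.2, 35.1, 39.2 and 39.04 RPKM in heterozygous libraries 1 to 4. Null library 3 was lowest and the groups did not overlap (log2 difference -0.36, SE 0.10, limma adjusted p = 0.695). Cyp51, a sterol demethylase, spanned 22.7 to 28.3 RPKM in null and 30.4 to 34.1 RPKM in heterozygous cords, and Sc5d, a late desaturase, 35.2 to 40.1 RPKM in null and 41.2 to 44.1 RPKM in heterozygous cords. Without null library 2, 9 of the 23 were lower without overlap (3.61% of all genes were) and the median was -0.13. At 3 months 2 of 21 tested were lower and 2 were higher without overlap, where 6.34% and 5.55% of all genes were, with a median of 0.00455.

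Glucocorticoid-responsive genes had mostly positive differences, and their level varied between null libraries. This list holds genes such as Zbtb16 and Xdh that earlier results of these data had already shown, so its direction is not independent. Of 31 tested, 7 were higher without overlap and 0 lower, against 1.71% and 2.44% of all genes. In this list 30 differences were positive, the median was 0.56 and 0 passed. The list median by library, with heterozygous cords near 0, was -0.05, 1.17, 0.64 and 0.50 in null libraries 1 to 4. Null library 1 thus lay with the heterozygous cords and null library 2 was highest. Without null library 1, 27 of the 31 were higher without overlap (7.89% of all genes were) and the median was 0.74. Without null library 2, 7 were (2.11% of all genes were) and the median was 0.36.

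Zbtb16, a zinc finger transcription factor gene (GRCm38 chromosome 9, 48654297 to 48836222, minus strand), measured 3.29, 6.34, 5.45 and 5.24 RPKM in null libraries 1 to 4, against 2.38, 2.72, 2.395 and 2.67 RPKM in heterozygous libraries 1 to 4. Null library 1 was the lowest null library and still above every heterozygous one (log2 difference 0.85, SE 0.16, limma adjusted p = 0.661). Hif3a, which encodes a hypoxia-inducible factor subunit, measured 0.725, 2.89, 2.93 and 1.72 RPKM in null libraries 1 to 4, against 0.364, 0.52, 0.263 and 0.526 RPKM in heterozygous libraries 1 to 4 (log2 difference 1.38, SE 0.29, limma adjusted p = 0.661). Xdh, xanthine dehydrogenase, measured 2.597, 5.17, 3.53 and 3.91 RPKM in the null cords and 1.85, 2.43, 1.56 and 1.76 RPKM in the heterozygous cords, and the lipid droplet gene Plin4 1.48, 7.27, 4.22 and 4.15 RPKM in the null cords and 1.26, 1.04, 0.887 and 0.891 RPKM in the heterozygous cords. In both, null library 1 was closest to the heterozygous cords, and the differences were 0.82 and 1.502. Fkbp5, a co-chaperone of the glucocorticoid receptor, measured 7.89, 16.1, 13.7 and 11.3 RPKM in the null cords and 7.53, 7.68, 8.71 and 7.77 RPKM in the heterozygous cords, where null library 1 overlapped (log2 difference 0.56, SE 0.17, limma adjusted p = 0.695). Without null library 1, Zbtb16, Hif3a, Xdh, Fkbp5, Plin4 and Sult1a1 of this list and the vessel genes Vwf and Slc2a1 described below passed among 28 higher genes, and Trim59 passed beside the target among 2 lower ones. At 3 months Plin4 was higher in every null library (0.53), and the list median was 0.08 with 3 of 31 higher without overlap, against 5.55% of all genes at that age.

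**Figure D2:**
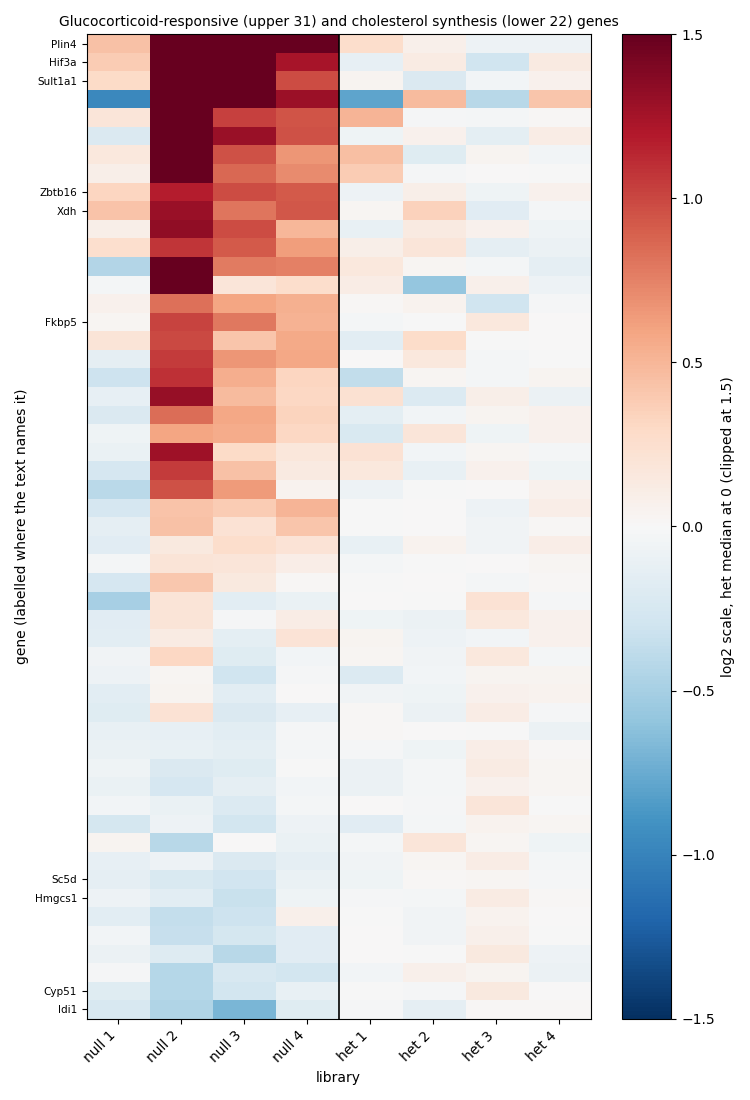
Level of 31 glucocorticoid-responsive genes (upper rows) and 22 of the 23 tested cholesterol synthesis genes (lower rows) in 8 libraries, as log2(RPKM + 0.5) minus the heterozygous median, null libraries left of the line; rows are labelled for genes named in the text. Null libraries 2 to 4 are high in most upper rows while null library 1 is near the heterozygous cords, and the lower rows differ by far less.

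Erythroid genes had the largest median difference of the 28 lists examined. Hbb-b1, an adult beta globin gene, measured 208, 1746, 571 and 391 RPKM in null libraries 1 to 4, against 94.1, 80.7, 139 and 69.99 RPKM in heterozygous libraries 1 to 4. Every null library was above every heterozygous one, and null library 2 was above all (log2 difference 2.52, SE 0.57, limma adjusted p = 0.682). Hba-a1, an alpha globin gene, measured 99.7, 695, 239 and 154 RPKM in the null cords and 45.9, 48.2, 69.5 and 38.8 RPKM in the heterozygous cords (log2 difference 2.17, SE 0.52, limma adjusted p = 0.687). The globin genes are near-identical copies: Hbb-b2 and Hbb-bt had the same value in every library, and Hba-a2 (2.27) and Hbb-bs (2.51) may share reads with their neighbours. Alas2, the red cell enzyme of haem synthesis, is not a globin and measured 4.04, 34.2, 11.6 and 7.64 RPKM in null libraries 1 to 4, against 1.54, 1.49, 1.84 and 1.43 RPKM in heterozygous libraries 1 to 4, with the same order of libraries (log2 difference 2.43, SE 0.52, limma adjusted p = 0.661). Of 11 tested erythroid genes 8 were higher without overlap and 0 lower, against 1.71% and 2.44% of all genes, and 0 passed. The differences were 9 positive and 2 negative, the lowest -0.03, with a median of 2.27. That median was the value of Hba-a2, so it rests on the globin copies. Hbb-b2 and Hbb-bt, with the same values, were counted as separate members. The summed level of the 14 listed genes in the table was 646 to 4603 RPKM in null and 292 to 471 RPKM in heterozygous cords. In bulk tissue, more cells of a type and more RNA per cell cannot be told apart, nor can blood left in the vessels. At 3 months 1 of 10 was higher without overlap, Alas2 (0.61), against 5.55% of all genes, and the median was 0.38.

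**Figure D3:**
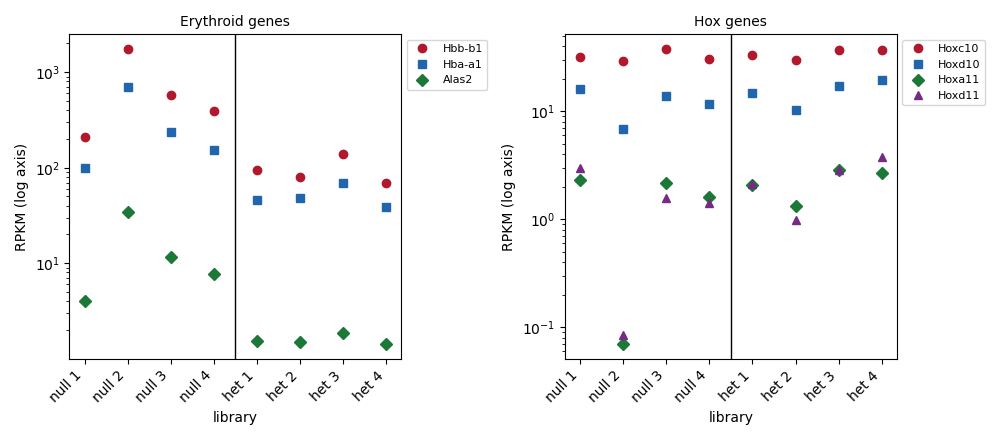
RPKM on a log axis in each library for 3 erythroid genes and 4 Hox genes, null libraries left of the line. The erythroid genes are higher in every null library and highest in null 2, and Hoxa11 and Hoxd11 are near 0 in null 2 and above 0.98 RPKM in the other 7.

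Short promoter windows of 3 of these lists were searched for 5 motifs, on both strands, in 27025 RefSeq promoters (GRCm38.p6, 250 bases before to 50 after the start, 1 per symbol). AGATAA was in 2 of 7 erythroid promoters (28.6%) and 11.4% of all. TCACNCC was in 3 of 16 cholesterol promoters (18.8%) and 15.6% of all, and the longer TCACNCCAC, which contains it, in 1 of 16 (6.25%) and 1.22% of all. AGAACA was in 2 of 27 glucocorticoid-responsive promoters (7.41%) and 19.0% of all and the longer palindromic glucocorticoid response element in 2 of 27 (7.41%) and 0.463% of all. Most members held no match, which says only that these letters are not in these windows. The 3 promoters below are, per list, the member with the smallest p among those that hold the shorter motif, so they were chosen because they match, and capitals mark the match on either strand. A match is not a binding site.
Alas2, chrX:150547167-150547466, plus strand: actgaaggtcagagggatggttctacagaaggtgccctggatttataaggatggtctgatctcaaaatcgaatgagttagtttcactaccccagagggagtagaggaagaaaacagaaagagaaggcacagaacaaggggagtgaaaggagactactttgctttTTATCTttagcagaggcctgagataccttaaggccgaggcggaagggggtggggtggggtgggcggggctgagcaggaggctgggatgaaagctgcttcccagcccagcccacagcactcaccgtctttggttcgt
Hmgcs1, chr13:119690101-119690400, plus strand: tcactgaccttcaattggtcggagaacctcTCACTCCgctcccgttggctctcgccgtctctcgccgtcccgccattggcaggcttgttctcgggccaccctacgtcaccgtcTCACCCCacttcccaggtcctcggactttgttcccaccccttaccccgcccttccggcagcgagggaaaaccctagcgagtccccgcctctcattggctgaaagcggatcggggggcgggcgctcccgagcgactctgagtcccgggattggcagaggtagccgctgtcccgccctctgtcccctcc
Sult1a1, chr7:126676369-126676668, minus strand: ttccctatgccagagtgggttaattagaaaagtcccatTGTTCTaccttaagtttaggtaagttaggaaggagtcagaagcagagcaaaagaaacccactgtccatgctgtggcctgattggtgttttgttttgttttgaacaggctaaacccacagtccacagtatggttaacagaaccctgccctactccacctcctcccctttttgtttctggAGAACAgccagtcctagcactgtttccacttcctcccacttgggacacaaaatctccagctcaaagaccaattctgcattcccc
Hmgcs1, which makes the precursor of mevalonate, measured 81.3 to 98.3 RPKM in null and 101 to 111 RPKM in heterozygous cords (log2 difference -0.18, SE 0.08, limma adjusted p = 0.704). Sult1a1, a sulfotransferase gene, measured 3.01, 12.9, 7.65 and 5.19 RPKM in the null cords and 2.47, 1.99, 2.298 and 2.51 RPKM in the heterozygous cords (log2 difference 1.28, SE 0.34, limma adjusted p = 0.695).

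Vessel genes had mostly small positive differences. Vwf, the clotting factor of endothelium, measured 2.38, 6.84, 7.71 and 3.93 RPKM in null libraries 1 to 4, against 1.69, 1.9996, 1.65 and 1.52 RPKM in heterozygous libraries 1 to 4, apart in every library and not past the threshold (log2 difference 1.25, SE 0.28, limma adjusted p = 0.661). The glucose transporter gene Slc2a1 measured 51.01, 97.7, 82.8 and 69.9 RPKM in the null cords and 46.8, 55.7, 47.5 and 49.1 RPKM in the heterozygous cords, with null library 1 inside the heterozygous range. Flt1 (10.7 to 13.4 RPKM in null and 9.06 to 11.4 RPKM in heterozygous cords) and Pecam1 (6.24 to 10.6 RPKM in null and 5.76 to 7.02 RPKM in heterozygous cords), both endothelial surface genes, overlapped between groups. Of 23 endothelial and pericyte genes 1 was higher without overlap and 0 lower, 19 differences were positive and 4 negative, and the median was 0.09. That median was 0.04 without null library 2 and 0.18 without heterozygous library 2. Other genes of small p on the higher side were Rsc1a1 (1.94 to 2.72 RPKM in null and 0.816 to 1.45 RPKM in heterozygous cords), which overlaps Ddi2 on the same strand so that reads cannot be assigned with certainty, the histidine-rich Hrct1 (1.05 to 1.88 RPKM in null and 0.354 to 0.767 RPKM in heterozygous cords), the lipid flippase Atp10a (3.03 to 3.29 RPKM in null and 2.04 to 2.72 RPKM in heterozygous cords), the ERK phosphatase Dusp6 (7.86 to 9.53 RPKM in null and 6.48 to 7.45 RPKM in heterozygous cords) and the inhibitory Smad6 (1.13 to 1.55 RPKM in null and 0.547 to 0.845 RPKM in heterozygous cords). Each was higher in every null library, with limma adjusted p = 0.661.

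Immune lists had positive medians and were highest in null library 2. Of 24 activated microglia genes, 23 differences were positive with a median of 0.70, yet 0 were apart between groups and 0 passed. The list median was 0.36, 1.78, 0.08 and 0.53 in null libraries 1 to 4, against 0.58, -0.19, -0.17 and -0.13 in heterozygous libraries 1 to 4. The highest library of each genotype, null library 2 and heterozygous library 1, also had Xist above 5 RPKM. Null library 4, the remaining library with Xist above 5 RPKM, was the next highest null library at 0.53. The part of Xist in the difference was not tested beyond a covariate, with which the median was 0.41. Without null library 2 the median was 0.29. Gpnmb, a glycoprotein of activated phagocytes, measured 3.97, 22.6, 3.102 and 5.51 RPKM in null libraries 1 to 4, against 5.19, 1.28, 1.04 and 0.85 RPKM in heterozygous libraries 1 to 4 (log2 difference 1.68, SE 0.64, limma adjusted p = 0.704). Trem2, a lipid receptor of microglia, measured 17.8, 44.2, 15.6 and 19.6 RPKM in null libraries 1 to 4, against 18.5, 11.3, 11.4 and 11.2 RPKM in heterozygous libraries 1 to 4 (log2 difference 0.77, SE 0.30, limma adjusted p = 0.704). In both, heterozygous library 1 lay inside the null range. Cst7 (1.57) and Ch25h (0.96) overlapped likewise. Outside the comparison, wild type libraries 3 and 4 had Xist at 44.6 and 0.0564 RPKM. Trem2 measured 16.3 and 24.0 RPKM in these libraries, and at most 12.7 RPKM in wild type libraries 1 and 2. Gpnmb measured 3.97 and 3.74 RPKM in wild type libraries 3 and 4, and at most 1.27 RPKM in wild type libraries 1 and 2.

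Homeostatic microglia genes had a median of 0.34, or 0.21 without null library 2, with 1 of 20 higher and 1 lower without overlap. P2ry13, a purine receptor, measured 5.48, 7.73, 5.36 and 5.63 RPKM in null libraries 1 to 4, against 5.201, 4.44, 4.38 and 4.57 RPKM in heterozygous libraries 1 to 4 (log2 difference 0.34, SE 0.11, limma adjusted p = 0.695), and the transcription factor gene Sall1 was lower at 8.65 to 10.4 RPKM in null and 10.9 to 11.6 RPKM in heterozygous cords (log2 difference -0.22, SE 0.06, limma adjusted p = 0.695). Cx3cr1, the fractalkine receptor, spanned 16.8 to 25.5 RPKM in null and 13.6 to 17.4 RPKM in heterozygous cords. The microglial markers P2ry12 and Tmem119 also overlapped between groups. P2ry12 spanned 14.3 to 16.7 RPKM in null and 13.7 to 15.1 RPKM in heterozygous cords. Tmem119 spanned 6.98 to 11.5 RPKM in null and 7.61 to 8.34 RPKM in heterozygous cords, with null library 1 lowest. The summed level of the 20 genes was 452 to 1073 RPKM in null and 354 to 522 RPKM in heterozygous cords, a sum in which abundant genes weigh most. Of infiltrating cells, the neutrophil gene S100a8 was at 5.18 RPKM in null library 2 and at most 1.47 RPKM in the other 7. It was named because it was far off in null library 2. Ngp, another neutrophil gene, was highest in heterozygous library 1 at 0.532 RPKM, against 0.272 RPKM in null library 2. The summed level of 23 neutrophil and infiltrating myeloid genes was 5.87 to 21.7 RPKM in null and 6.17 to 10.9 RPKM in heterozygous cords.

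Of 16 complement and Fc receptor genes all 16 differences were positive and 3 were higher without overlap, against 1.71% of all genes. The median was 0.69, or 0.37 without null library 2, and 0 passed. Cfb, a factor of the alternative complement pathway, measured 0.647, 0.953, 0.884 and 0.843 RPKM in null libraries 1 to 4, against 0.36, 0.416, 0.266 and 0.457 RPKM in heterozygous libraries 1 to 4, with null library 2 highest by a small margin and null library 1 lowest (log2 difference 0.61, SE 0.11, limma adjusted p = 0.661). No heterozygous library reached 0.5 RPKM, so Cfb passed the filter only through the null libraries. Its place among the 3 without overlap is therefore not independent of the filter. Cfb also overlaps Gm20547 on the same strand, so its reads cannot be assigned with certainty. C4b, a classical pathway component, measured 51.2, 70.4, 36.8 and 39.4 RPKM in the null cords and 36.9, 26.8, 21.6 and 22.4 RPKM in the heterozygous cords, where heterozygous library 1 lay just above null library 3 (log2 difference 0.85, SE 0.22, limma adjusted p = 0.687). Fcgr2b, the inhibitory Fc receptor, measured 5.196, 13.9, 4.53 and 5.12 RPKM in null libraries 1 to 4, against 4.26, 2.07, 2.58 and 2.44 RPKM in heterozygous libraries 1 to 4 (log2 difference 1.10, SE 0.33, limma adjusted p = 0.695).

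Of 17 antigen presentation genes all 17 differences were positive and 4 were higher without overlap, against 1.71% of all genes. The median was 0.35, or 0.15 without null library 2. The class I gene H2-K1 measured 38.2, 54.8, 32.3 and 36.8 RPKM in null libraries 1 to 4, against 31.7, 26.98, 25.4 and 25.95 RPKM in heterozygous libraries 1 to 4 (log2 difference 0.53, SE 0.14, limma adjusted p = 0.695). H2-Q4 measured 10.9 to 15.7 RPKM in null and 8.17 to 10.01 RPKM in heterozygous cords, the immunoproteasome gene Psmb8 5.29 to 11.1 RPKM in null and 3.66 to 5.22 RPKM in heterozygous cords and H2-D1, which overlapped, 63.2 to 99.1 RPKM in null and 52.8 to 63.2 RPKM in heterozygous cords. Class I genes are close in sequence and may share reads. Of 25 interferon response genes 1 was higher without overlap, with a median of 0.20, which was 0.11 without null library 2, 0.30 without null library 3 and 0.0998 with the Xist covariate. Of 18 inflammatory genes 3 were, with a median of 0.31, or 0.14 without null library 2: Icam1, an adhesion molecule (2.17 to 4.55 RPKM in null and 1.02 to 1.87 RPKM in heterozygous cords), Socs3, a feedback inhibitor of cytokine signalling (1.11 to 2.58 RPKM in null and 0.581 to 1.01 RPKM in heterozygous cords), and the acute phase gene Lcn2 (2.17 to 18.2 RPKM in null and 1.45 to 2.07 RPKM in heterozygous cords). The chemokine gene Ccl5 overlapped (0.804 to 2.63 RPKM in null and 0.0676 to 1.32 RPKM in heterozygous cords).

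Reactive astrocyte genes had a median of 0.54, or 0.31 without null library 2. In this list 4 of 20 were higher without overlap, against 1.71% of all genes, 20 of 20 were positive and 0 passed the threshold. Lists share members, so their medians and counts are not independent. Fkbp5 is in this and the glucocorticoid-responsive list, and Lcn2 in this and the inflammatory list. Trem2 is in both microglia lists, and Gpnmb in the activated microglia and lysosome lists. Osmr, the oncostatin M receptor, measured 2.26, 4.88, 2.61 and 2.46 RPKM in null libraries 1 to 4, against 2.09, 1.45, 1.43 and 1.31 RPKM in heterozygous libraries 1 to 4 (log2 difference 0.74, SE 0.20, limma adjusted p = 0.695). Cd109 measured 1.55 to 4.71 RPKM in null and 0.861 to 1.52 RPKM in heterozygous cords, and Gfap, the intermediate filament of astrocytes, 473, 629.9, 386 and 548 RPKM in the null cords and 525, 353, 357 and 331 RPKM in the heterozygous cords, where heterozygous library 1 lay inside the null range (log2 difference 0.38, SE 0.18, limma adjusted p = 0.704). General astrocyte genes had a median of 0.07, or 0.12 without null library 1, with 1 of 15 higher without overlap.

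**Figure D4:**
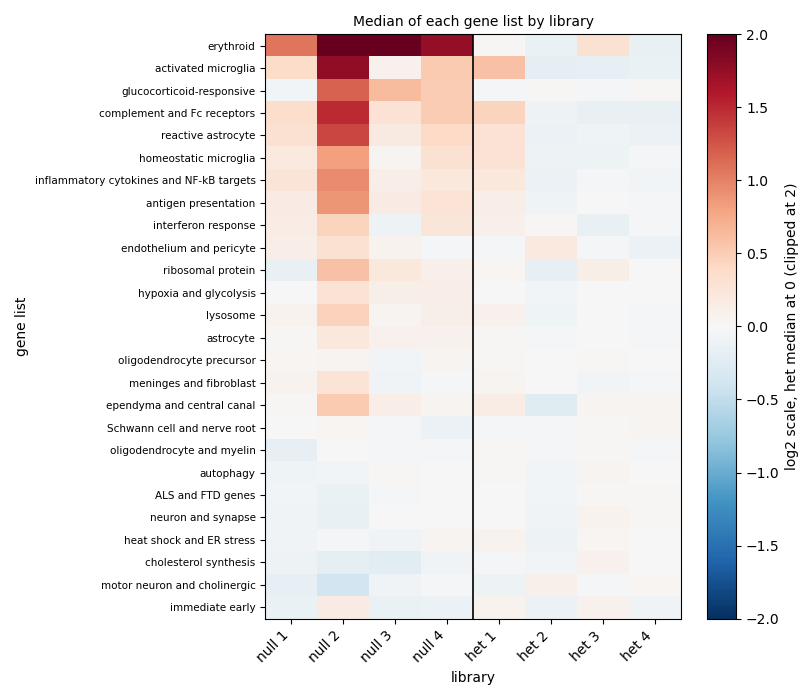
Median of each gene list in each library on the log2 scale, relative to the heterozygous mean of each gene, null libraries left of the line. The label of the colour bar names the heterozygous median, but the values are relative to the mean. Null library 2 is the highest library and heterozygous library 1 the highest heterozygous one in the microglial, interferon, antigen presentation, complement, inflammatory and astrocyte lists, and the erythroid list is high in all 4 null libraries.

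Motor neuron genes had mostly negative differences. Of 19 tested, 1 was lower without overlap, 16 differences were negative and the median was -0.13, or -0.07 with array weights. That member, Nrg1, the neuregulin of motor neurons, measured 8.49, 5.17, 7.98 and 8.55 RPKM in null libraries 1 to 4, against 9.67, 9.92, 9.53 and 9.45 RPKM in heterozygous libraries 1 to 4, lowest in null library 2 (log2 difference -0.36, SE 0.13, limma adjusted p = 0.704). Chodl, a marker of fast motor neurons, measured 16.7, 10.1, 9.89 and 19.3 RPKM in null libraries 1 to 4, against 18.8, 22.6, 20.2 and 22.6 RPKM in heterozygous libraries 1 to 4, lowest in null libraries 2 and 3, with null library 4 inside the heterozygous range (log2 difference -0.63, SE 0.20, limma adjusted p = 0.695). Calcb and Calca, which encode calcitonin gene-related peptides, spanned 5.16 to 10.2 RPKM in null and 9.46 to 10.5 RPKM in heterozygous cords, and 8.71 to 24.01 RPKM in null and 21.9 to 29.5 RPKM in heterozygous cords. The neurofilament gene Nefh was at 182 RPKM in null library 2 and at least 282 RPKM in the other 7. Null library 2 is also the library with Hoxa11 and Hoxd11 near 0 and with the lowest Chat, and the part of that in these values was not tested. Of 25 neuron and synapse genes 0 were apart, with a median of -0.07, or -0.02 without null library 2.

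Of 29 ALS and FTD genes 2 were lower without overlap and 0 higher, with a median of -0.07, or -0.02 without null library 2. Tbk1 above is 1 of the 2. Immediate early genes had 2 higher and 1 lower of 24 and a median of -0.05, whose sign turned: it was 0.03 without null library 1 and -0.13 without null library 2. Nr4a2 was the lower one (0.467 to 0.58 RPKM in null and 0.617 to 0.847 RPKM in heterozygous cords), Fos overlapped narrowly (7.17 to 9.43 RPKM in null and 9.296 to 11.8 RPKM in heterozygous cords) and Atf3, induced by injury, spanned 1.04 to 2.9001 RPKM in null and 0.762 to 1.33 RPKM in heterozygous cords. Hypoxia and glycolysis genes had a median of 0.13, or 0.08 without null library 2, with 2 of 25 higher, Pfkl of glycolysis (25.1 to 27.5 RPKM in null and 22.3 to 23.8 RPKM in heterozygous cords) and the demethylase Kdm3a (7.73 to 9.34 RPKM in null and 6.46 to 7.66 RPKM in heterozygous cords), while Egln3 overlapped (6.45 to 7.2001 RPKM in null and 5.98 to 6.47 RPKM in heterozygous cords). Heat shock and ER stress genes had 0 of 26 apart and a median of -0.01, between -0.04 and 0.02 with 1 library left out, with the ER stress factor Xbp1 at 21.7 to 25.1 RPKM in null and 17.7 to 22.5 RPKM in heterozygous cords. Ribosomal protein genes had 0 of 52 apart and 51 positive differences, with a median of 0.18, which was 0.05 without null library 2 and 0.30 without null library 1; by library the list stood at -0.14, 0.58, 0.21 and 0.10 in null libraries 1 to 4. Meninges and fibroblast genes had 2 of 16 higher, with a median of 0.07 that turned to -0.0556 without null library 2 and to -0.0549 with array weights. Ptgds, prostaglandin D synthase, was 1 of the 2 (352 to 655 RPKM in null and 261 to 338 RPKM in heterozygous cords, log2 difference 0.69, SE 0.17, limma adjusted p = 0.687), and Dcn of connective tissue overlapped (4.18 to 5.59 RPKM in null and 5.12 to 5.82 RPKM in heterozygous cords).

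At 3 months the same contrast called the target alone among 13850 genes (0.00722%), with 2.29% of genes higher and 3.69% lower at an unadjusted limma p under 0.05, and with 768 genes higher (5.55%) and 878 lower (6.34%) without overlap between 3 and 3 libraries. Of 219 genes higher without overlap at 17 months and tested at both ages, 19 (8.68%) were higher at 3 months as well, which is 2.52% of the 3 month genes, and 7 were lower. Of 330 lower ones, 31 (9.39%) were lower at both ages, which is 3.63% of the 3 month genes, and 23 were higher. The ages were sequenced on different instruments and were never pooled.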

How the data were processed

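RNA-seq of lumbar cord was prepared by Ion Torrent (17 months) or Illumina (3 months) protocols, per the labels' protocols. The authors deposited a table per age, whose values are treated here as RPKM. TopHat2 2.0.8b, Partek and the builds mm9 and mm10 are named without a role, per the submitters' processing notes; annotation and counting mode are not stated, and depth is unknown. Whether values are RPKM or FPKM is not stated. Values times annotated length in kilobases were summed under 3 length definitions, which gave 443065 to 492995 (median transcript), 954393 to 1036140 (longest transcript) and 1343860 to 1455200 (union of exons) per library at 17 months. Of the 3, the longest transcript comes nearest to the total that RPKM implies, but the lengths the authors used are not known, so the sums do not settle the unit.

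At 17 months, dropping 26 rows named as dates left 20153 genes. Genes reaching 0.5 RPKM in 4 of 8 libraries (3 of 6 at 3 months) entered a limma 3.58.1 fit with trend and robust settings (R 4.3.3 with statmod 1.5.0) of log2(RPKM + 0.5), null and heterozygous libraries only, two-sided, with Benjamini-Hochberg adjustment over all genes tested. The model was tested on simulated data. Positions come from GENCODE for GRCm38 and promoters from RefSeq. Plots used matplotlib 3.10.9 in Python 3.11.15.

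The genotypes, gene lists and rules were chosen with earlier results of these data known. The rule names the target, the 10 smallest p and 10 largest gaps per direction, up to 4 members per list and the 10 genes per direction farthest off in null library 2. It gave 134 genes. The text names 95, a choice made with their values in view, including Smcr8, Wdr41, Sult1a1, Hmgcs1 and Hoxd10 from outside the rule; outlier checks cover these 95. Some members the rule names are not reported here. Alternatives varied pseudocount, filter, normalization, limma settings, weights, covariate, groups fitted and libraries.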

Additional observations from a re-analysis of the deposited data

Results flagged for a closer look

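A group was marked where its highest or lowest library lay far from the other 3, by the gap divided by the group's range. This held for 33 of 246 groups checked (95 named genes and the gene lists, per genotype), where chance marks about 1 in 20; genes of a list share libraries, so the marks are not independent. Null library 2 was the far library in 16 of them, heterozygous library 1 in 10, null library 1 in 3, and heterozygous libraries 2 and 3 in 2 each. No explanation was tested.

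Null library 2 was far below the other null cords for Smcr8 (0.900 of the range), Nrg1 (0.860) and Tgoln2 (0.889). It was far above them for P2ry13 (0.867), Cx3cr1 (0.852), Fcgr2b (0.881), Psmb8 (0.842), Icam1 (0.968), Man2b1 (0.960), Grn (0.863), Dcn (0.864) and Kdm3a (0.850). It was likewise the high library of the lysosome (0.871), antigen presentation (0.848), inflammatory (0.849) and immediate early lists (0.957). Null library 1 was the far library for Mob3b (0.861) and Egln3 (0.843), where it was low, and for Trim59 (0.957), where it was high.

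Heterozygous library 1 was far above the other heterozygous cords for Trem2 (0.973), Cst7 (0.875), Cd109 (0.887), Gfap (0.840) and Man2b1 (0.887), and far below them for Ddx3y (0.976). It was the high library of the homeostatic microglia (0.850), activated microglia (0.919), complement and Fc receptor (0.906) and reactive astrocyte lists (0.925). Heterozygous library 3 was high for Dusp6 (0.854) and Cyp51 (0.850), and heterozygous library 2 was low for Smad6 (0.833) and in the hypoxia and glycolysis list (0.869).

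For 2 of the 95 genes named in the text the groups were apart at both ages in opposite directions, and the difference between ages was not tested. Fcgr2b had a log2 difference of 1.095 at 17 months and -0.10 at 3 months and Pfkl 0.16 and -0.02.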

How the results depend on the processing

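The count of genes past the threshold, 1 as reported (the target), was 0 with no filter on low values (limma, 1270 genes at an unadjusted p under 0.05; target adjusted p = 0.0693) and with the replicate block (859 genes; target adjusted p = 0.140), and 4 with array weights (2 higher, 2 lower). Leaving out 1 library gave counts from 0 to 30, the 30 (28 higher, 2 lower) without null replicate 1, and target log2 differences from -2.05 to -2.42, with -2.26 under no filter and under the block. The cause was not tested. Same-numbered null and heterozygous libraries had deviations correlated at -0.28, -0.29, 0.31 and -0.02, so the numbers do not pair the samples and the block is a hint only. The median of the myelin list was -0.117 with quantile normalization. That of meninges and fibroblast genes was -0.0549 with array weights and -0.0556 to 0.145 with 1 library left out; in the fit of 3 genotypes without null replicate 2 and wild type replicate 4, added after seeing the data, it was -0.0556 and that of ALS and FTD genes -0.0219. With 1 library left out, ALS and FTD genes ranged from -0.0796 to -0.0219 and sex-linked genes from -0.212 to 0.109. Smcr8 changed sign, at 0.00166 with median centring, 0.00182 with quantile normalization, 0.0253 with array weights, 0.0161 with the Xist covariate, 0.0472 without those libraries and -0.0255 to 0.0472 with 1 library left out. Wdr41 did too, at -0.00157 with quantile normalization, -0.00527 with the Xist covariate and -0.0261 to 0.0281 with 1 library left out. Of the other differences of named genes, 0 changed sign under the alternatives run. With 4 libraries a group and no counts, counting error could not be given.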
